A study of Mus musculus with 12 samples.

Results

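AP-1 is a dimeric transcription factor, and the transcripts described here are those of 8 genes that encode its subunits or a close partner: Fos, Fosb, Fosl1 and Fosl2 (the Fos family), Jun, Junb and Jund (the Jun family) and Atf3. The genes were taken by name from the named rows of the tongue RNA-seq tables, so 8 of 32498 named rows are described. All 8 passed the filter on low values (mean FPKM of 0.1 or more, where FPKM is reads divided by exon length and by library size), which left 16849 genes for testing.

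AP-1 proteins pair through a leucine zipper and bind DNA through an adjoining basic region. Jun proteins can pair with each other or with a Fos protein, whereas Fos proteins need a partner. Fos, Fosb, Jun, Junb and Atf3 are immediate early genes, transcribed soon after growth factor, cytokine or stress signals without the need for new protein, and AP-1 is a known regulator of keratinocyte proliferation, wound repair and inflammatory genes in stratified epithelia such as that of the tongue.

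C57BL/6 mice, aged 5 weeks at purchase, drank water with the oral carcinogen 4-nitroquinoline 1-oxide (4NQO) at 100 µg/mL for 16 weeks and plain water thereafter. From week 4 they were gavaged 5 times per week until sacrifice with gallic acid (GA), a plant phenolic acid, at 100 mg/kg, or with the same volume of vehicle. The comparison therefore asks how GA changed transcripts in carcinogen-exposed tongue, and no group was free of 4NQO. Tongue tissue labelled as tumor and tumor-associated gave 6 vehicle and 6 GA libraries, and since the labels number the libraries but name no animals, p-values measure the spread between libraries.

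Library totals recovered from the FPKM values ran from 18040349 to 25192663 reads. Keratins were high in all libraries, with Krt13, a keratin of the upper layers of tongue epithelium, at 5594 to 23127 scaled FPKM. Skeletal muscle markers summed to 1227 to 10180 scaled FPKM. Reads on Y-linked genes were present in vehicle libraries 1 to 4 and GA library 1, so 4 of 6 vehicle and 1 of 6 GA libraries came from tissue with a Y chromosome, and the sex of the mice is not given in the sources used here. Lipf, a lipase of lingual glands, was at or above 8765 FPKM in vehicle libraries 3 and 5 and GA library 2, and in the remaining 9 it did not exceed 0.508 FPKM. In vehicle libraries 3 and 5 and GA library 2, scaled Lipf (22494, 8279 and 26288 FPKM) exceeded Krt13 (7297, 7601 and 5594).

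The promoter sequences of 7 of the 8 genes were read from RefSeq (GRCm38.p6) as the 250 bases before the transcription start. The 4 that are printed are those of Fos, the member with the largest difference between the groups, of Fosb and Jun, which varied with it across libraries, and of Atf3, against which Fos differed most. They run 5′ to 3′ on the strand of the gene, and the capitals mark matches, on either strand, to the motifs listed after them. The windows are chr12:85473640-85473889 on the plus strand for Fos and, on the minus strand, chr7:19310046-19310295 for Fosb, chr4:95052223-95052472 for Jun and chr1:191183334-191183583 for Atf3. The Atf3 window precedes a RefSeq start that lies inside the longer gene of the GENCODE annotation. Of the windows not printed, that of Fosl2 (chr5:32136222-32136471) also lies inside the GENCODE gene, which starts at 32135801. That of Jund (chr8:70697489-70697738) lies apart from the GENCODE gene, which starts only at 70698949.
Fos: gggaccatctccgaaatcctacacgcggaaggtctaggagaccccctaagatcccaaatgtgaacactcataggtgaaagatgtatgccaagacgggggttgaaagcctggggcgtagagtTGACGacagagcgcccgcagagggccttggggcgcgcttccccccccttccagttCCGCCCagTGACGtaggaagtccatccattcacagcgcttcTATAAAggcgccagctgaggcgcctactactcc
Fosb: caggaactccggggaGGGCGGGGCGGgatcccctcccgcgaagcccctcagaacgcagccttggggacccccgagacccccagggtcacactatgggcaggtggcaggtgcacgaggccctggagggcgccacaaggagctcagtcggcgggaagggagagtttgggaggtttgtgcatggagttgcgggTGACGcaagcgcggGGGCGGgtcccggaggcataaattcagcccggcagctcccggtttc
Jun: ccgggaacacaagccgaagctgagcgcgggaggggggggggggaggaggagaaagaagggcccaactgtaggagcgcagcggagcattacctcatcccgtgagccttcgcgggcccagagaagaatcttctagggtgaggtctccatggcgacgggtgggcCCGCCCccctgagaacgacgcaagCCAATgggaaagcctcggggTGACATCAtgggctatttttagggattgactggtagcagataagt
Atf3: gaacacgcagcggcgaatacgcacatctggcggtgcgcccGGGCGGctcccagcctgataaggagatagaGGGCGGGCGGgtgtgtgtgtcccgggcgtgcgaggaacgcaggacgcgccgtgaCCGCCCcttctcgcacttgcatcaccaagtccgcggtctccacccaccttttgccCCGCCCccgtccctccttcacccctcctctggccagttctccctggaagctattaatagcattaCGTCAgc

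The motifs searched were the AP-1 site TGACTCA, the cAMP response element TGACGTCA and its core TGACG (which every TGACGTCA contains), the variant TGACATCA known from the Jun promoter, the GC box GGGCGG, the TATA box TATAAA, the CCAAT box, the STAT site TTCNNNGAA and the CArG box of serum response factor. Neither TGACTCA (held by 4.46% of 32851 promoter windows of the same length) nor TGACGTCA (1.55%) was found in any of the 7 windows, and neither were the CArG box (1.47%) and the STAT site (7.02%). The core TGACG, present in 17.8% of all windows, began at positions -129 and -66 from the start of Fos, and was also in the windows of Fosb, Junb and Atf3. The variant TGACATCA, present in 2.93% of all windows, was in Jun alone of the 7. TATAAA, in 12.4% of all windows, was in Fos alone. CCAAT (33.8%) was found in Jun and Junb, and GGGCGG (32.7%) in Fos, Fosb, Fosl2, Jun and Atf3. These matches, and the absence of a match, describe the letters of the windows only. Sequence farther upstream was not searched, so a motif not found here may still lie outside the window of a gene, Fos included.

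The 8 transcripts spanned a wide range of levels per length. Over the 12 libraries the median FPKM was 121.7 for Junb, 36.8 for Jund, 25.5 for Jun, 19.04 for Fosl2, 7.49 for Fos, 2.38 for Atf3, 1.25 for Fosl1 and 0.276 for Fosb. The same order held in the vehicle group and in the GA group. Junb exceeded Jund in 12 of 12 libraries, and so did Fosl1 exceed Fosb. Jun exceeded Fosl2, and Fosl2 exceeded Fos, in only 9 of 12 libraries. The closest neighbours were Jun and Fosl2, with a mean log2 ratio of 0.30 ± 0.36 (SD, n = 12), smaller than its spread, followed by Jund and Jun with 0.62 ± 0.47. Without division by gene length, Fosl2, whose exons cover 9680 bases, came second by reads.

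**Figure D1:**
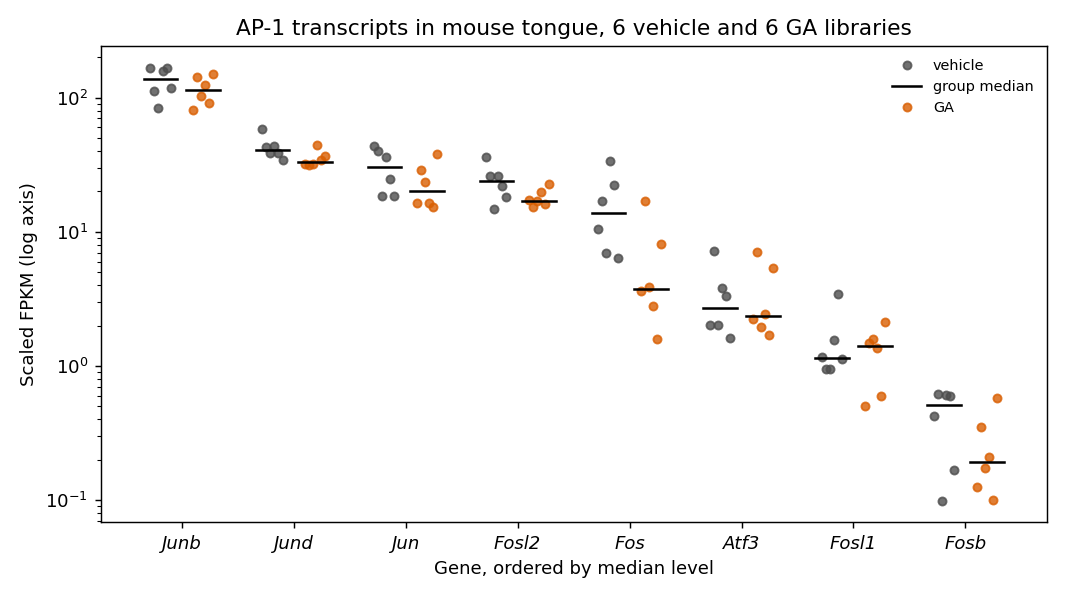
Levels of the 8 AP-1 transcripts in scaled FPKM on a log axis, ordered by median level, with 1 point per library (6 vehicle in grey, 6 GA in orange) and the group median as a black line. The groups overlapped for all 8 genes, and the GA median of Fos (3.74) lay below the lowest vehicle library (6.42).

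Depth differed between members in the same way. Junb was read by 3708 to 9048 reads per library and Fosl2 by 2784 to 6259, whereas Fosb had 12 to 95 reads, Fosl1 22 to 151 and Atf3 75 to 348. The strand setting of the read counting is not given in the sources used here. Of the exon bases of Fosl1, 57.2% overlap the gene Ccdc85b on the other strand, where reads of these genes can be told apart only by strand. Ccdc85b itself had 3.50 ± 0.406 and 3.45 ± 0.490 scaled FPKM in the vehicle and GA groups (SD, n = 6 each). Jund shares 52.6% of its exon bases with Gm11175, Jun 7.28% with Junos and Junb 7.52% with Prdx2, each on the other strand. Fos, Fosb, Fosl2 and Atf3 share none.

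With GA, 7 of the 8 members had a lower mean than with vehicle (log2 fold change below 0), beside 53.7% of all tested genes. None of the 8 passed limma on the log2 scale at the thresholds of the study, which itself fitted a count model (p below 0.1 after Benjamini-Hochberg adjustment, with a log2 fold change of 0.58 or more in size), and neither did any other gene (0 of 16849, 0.0%). The adjusted p of each member was 0.999. At an unadjusted limma p below 0.05, 1 of 8 members (Fos) was lower, beside 2.17% of all genes in either direction and 1.28% lower with GA. That split over all genes was 150 higher and 216 lower, and 162 higher and 150 lower without scaling of the libraries. One member (Fos) had a log2 fold change of -0.58 or lower, beside 4.47% of all genes. The groups overlapped for every member, whereas they did not for 0.0653% of all genes. In bulk tissue, fewer cells of a type and less RNA per cell cannot be told apart.

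Fos encodes the founding subunit of the family, whose messenger is short-lived and appears within minutes of a stimulus. In the vehicle libraries 1 to 6 it stood at 10.5, 16.9, 6.97, 33.8, 22.3 and 6.42 scaled FPKM. In the GA libraries 1 to 6 it stood at 3.64, 16.9, 3.85, 2.81, 1.58 and 8.08. Thus 4 of 6 GA libraries were below the lowest vehicle library, GA library 6 was within the vehicle range, and GA library 2 was level with vehicle library 2. The mean was 16.1 ± 10.6 in the vehicle group and 6.15 ± 5.72 in the GA group (SD, n = 6 each). The log2 fold change was -1.55 with a standard error of 0.55 in limma (unadjusted p = 0.0157, adjusted p = 0.999). An exact permutation test over all assignments of the libraries to groups gave a two-sided p of 0.0368, beside 2.42% of genes with an exact p below 0.05. The study reported Fos as significantly downregulated from these libraries with its count model, whereas at the same thresholds Fos was not called here. The reason for this difference was not tested. As the libraries are the same, the direction of Fos here is not independent evidence.

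The difference in Fos was also read with the uneven libraries set aside. Among the 7 libraries that lacked Y-linked reads (2 vehicle, 5 GA) the log2 fold change was -1.32 (limma, unadjusted p = 0.205), while the 5 with such reads held only 1 GA library and gave no test. With a sex term in the fit of all 12 libraries it was -1.54 (unadjusted p = 0.0410). Without the 3 libraries high in Lipf it was -1.98 (limma, unadjusted p = 0.00545, adjusted p = 0.959).

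The other Fos-family genes differed less. Fosb, a close relative of Fos induced by the same signals, ranged from 0.0994 to 0.624 scaled FPKM with vehicle (median 0.513) and from 0.101 to 0.578 with GA (median 0.194). The groups covered almost the same range, although 5 of 6 GA libraries lay under the vehicle median, beside 17.7% of all genes with at least 5 of 6. Its log2 fold change was -0.51 with a standard error of 0.41 (exact permutation p = 0.238), and the added 0.1 FPKM understates it, since with 0.01 FPKM it was -0.66.

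Fosl1 encodes Fra-1, a subunit associated with migrating and invasive epithelial cells. It ranged from 0.948 to 3.43 with vehicle (median 1.15) and from 0.501 to 2.13 with GA (median 1.42), so that its median was higher and its mean lower with GA. The log2 fold change was -0.24 with a standard error of 0.38 (exact permutation p = 0.574), and it was 0.01 without vehicle library 5, the highest of the 12. With a sex term the fold change was -0.72 (limma, unadjusted p = 0.0760). Among libraries lacking Y-linked reads, of which vehicle library 5 is one, it was -0.54 (limma, unadjusted p = 0.358).

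Fosl2 encodes Fra-2, the most abundant Fos-family transcript in this tissue. With vehicle it ranged from 14.9 to 36.3 scaled FPKM (median 24.0) and with GA from 15.4 to 22.7 (median 17.1). All 6 GA libraries lay under the vehicle median, yet vehicle library 3 was lower than each of them. Its log2 fold change was -0.36 with a standard error of 0.19 (limma, unadjusted p = 0.0773, exact permutation p = 0.102). Without the 3 libraries high in Lipf, of which vehicle library 3 is one, it was -0.49 (limma, unadjusted p = 0.0285, adjusted p = 0.959). It was -0.23 without vehicle library 1, the highest (limma, unadjusted p = 0.174), -0.29 with a sex term (limma, unadjusted p = 0.228) and -0.15 among libraries lacking Y-linked reads (limma, unadjusted p = 0.408).

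In the Jun family, Jun, the first-described partner of Fos, ranged from 18.4 to 43.6 scaled FPKM with vehicle (median 30.6) and from 15.3 to 38.1 with GA (median 20.1). Its log2 fold change was -0.39 with a standard error of 0.29 (exact permutation p = 0.238). GA libraries 1, 4 and 5 were below the lowest vehicle library, and GA library 6 was above 4 of the 6 vehicle libraries. Among libraries lacking Y-linked reads the difference turned to 0.11.

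Junb encodes a subunit that can restrain Jun activity in some settings. It ranged from 83.9 to 167 with vehicle and from 80.6 to 150 with GA, with a log2 fold change of -0.21 and a standard error of 0.21 (exact permutation p = 0.338). The ranges of the groups overlapped widely, and the fold change was -0.12 without GA library 1 and -0.34 without vehicle library 3.

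Jund, the least inducible Jun gene, was also the steadiest of the 8, with a highest level 1.85 times the lowest over the 12 libraries, against 21.4 times for Fos. It ranged from 34.4 to 58.4 with vehicle (median 40.7) and from 31.5 to 44.1 with GA (median 33.1), and 4 of 6 GA libraries were below the lowest vehicle library. The log2 fold change was -0.27 with a standard error of 0.13 (limma, unadjusted p = 0.0603, exact permutation p = 0.0584). Among libraries lacking Y-linked reads it was -0.04.

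Atf3, a stress-induced member of the ATF/CREB group that pairs with Jun proteins, was the only member whose mean log2 level was not lower with GA. It ranged from 1.62 to 7.15 with vehicle (median 2.69) and from 1.70 to 7.04 with GA (median 2.35). The ranges were nearly the same, with vehicle library 2 and GA library 2 at the top of each. The log2 fold change was 0.03 with a standard error of 0.42 (exact permutation p = 0.955), and its sign changed with single libraries, between -0.21 without GA library 2 and 0.28 without vehicle library 2.

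**Figure D2:**
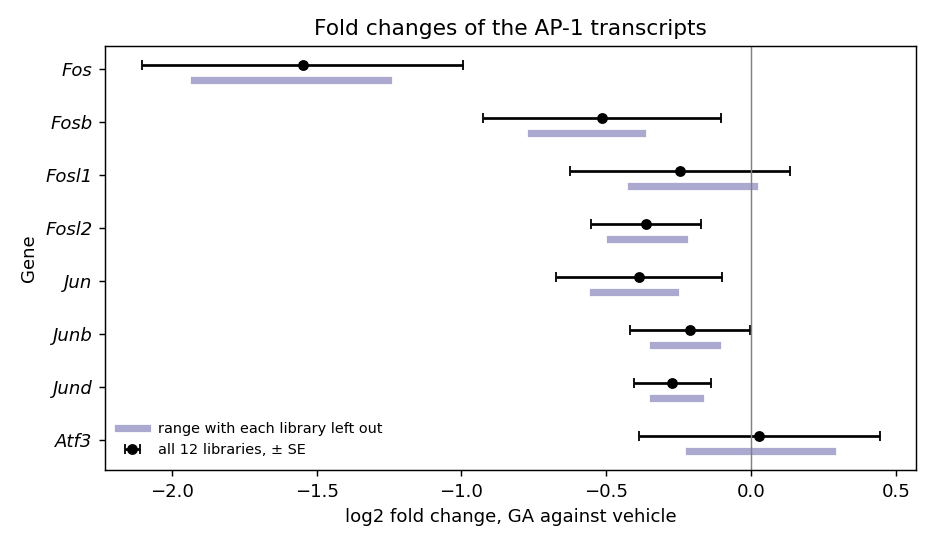
Log2 fold change of each AP-1 transcript, GA against vehicle, on log2(scaled FPKM + 0.1), as black points with the limma standard error as bars (6 libraries per group), and as violet bars the range of the fold change when each of the 12 libraries was left out in turn. The range of Fos lay between -1.92 and -1.26, and those of Fosl1 and Atf3 spanned 0.

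Ratios between members within a library depend on how libraries are scaled only through the added 0.1 FPKM. The difference between the groups in Fos to Fosb, for example, was -1.03 with scaling and -1.02 without. All 28 pairs were compared, and 5 had an exact permutation p below 0.05 before adjustment, each of them with Fos. The ratio with the smallest p was that of Fos to Atf3. On the log2 scale it ranged from 1.23 to 3.10 with vehicle and from -0.10 to 1.25 with GA, and all 6 GA libraries lay under the vehicle median. The groups overlapped by 1 library on each side, since GA library 2 was at 1.25 and vehicle library 2 at 1.23. The mean ratio differed by -1.58 between the groups, with a two-sided exact permutation p of 0.00433 and 0.121 after adjustment over the 28 ratios. Both genes were at their highest of the GA group in GA library 2 (16.9 scaled FPKM for Fos and 7.04 for Atf3). The difference of this ratio was -1.73 among libraries lacking Y-linked reads (exact permutation p = 0.0476, the smallest that 2 against 5 libraries can give) and -1.69 without the 3 libraries high in Lipf (p = 0.00794, exact permutation).

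Fos was also lower relative to Fosb (-1.03, exact permutation p = 0.0238), Junb (-1.34, p = 0.0281), Fosl1 (-1.30, p = 0.0325) and Jun (-1.16, p = 0.0346), each with an adjusted p of 0.194 and 5 of 6 GA libraries under the vehicle median. Relative to Fosl2 and Jund the differences were -1.19 (exact permutation p = 0.0801) and -1.28 (exact permutation p = 0.0779), both at 0.280 after adjustment. None of the 28 adjusted p-values was below 0.1, and the 28 ratios share 8 genes. Leaving out vehicle library 4 reduced the count of 5 to 2, as did leaving out GA library 4 or 5, and it was 3 when vehicle library 5, GA library 3 or GA library 6 was left out. Among libraries lacking Y-linked reads it was 1 (Fos to Atf3). The 21 ratios without Fos had exact permutation p-values from 0.0801 (Fosb to Atf3) to 0.946. Without vehicle library 3 the ratios of Fosb to Atf3 (-0.69, exact permutation p = 0.0325) and Fosl2 to Jund (-0.19, exact permutation p = 0.0476) also had p below 0.05 before adjustment, as did Fosb to Atf3 without vehicle library 2 (-0.67, exact permutation p = 0.0411).

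**Figure D3:**
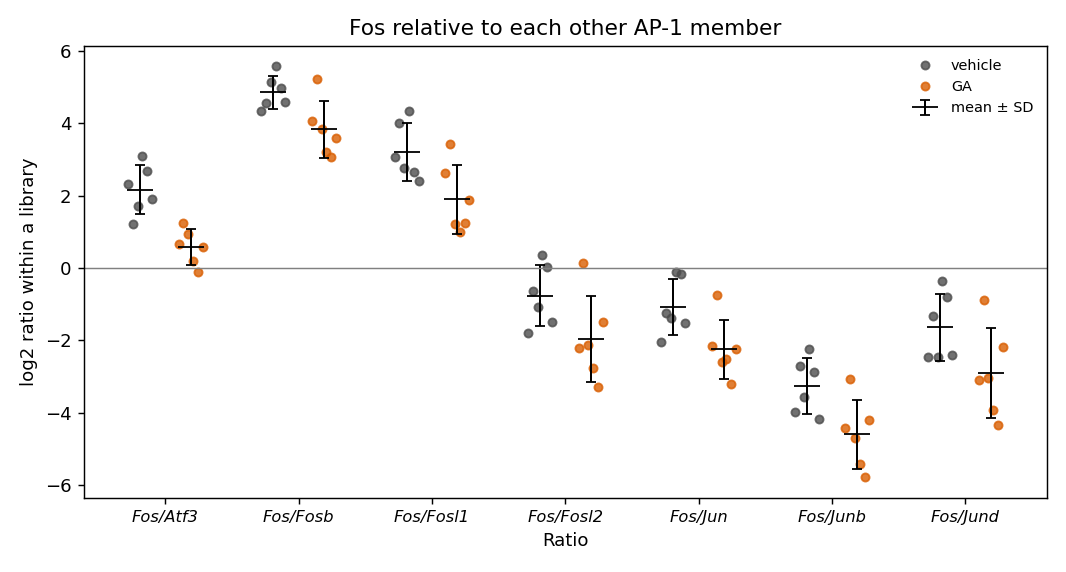
Log2 ratio of Fos to each of the other 7 AP-1 transcripts within each library (6 vehicle in grey, 6 GA in orange), with black bars for the group mean ± SD. The mean was lower with GA for all 7 ratios, and in each GA library 2 was the highest point of the GA group and within the vehicle range.

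As FPKM is per length, levels were also summed by family. The Fos family summed to 42.4 ± 17.1 FPKM in vehicle libraries and 25.9 ± 6.71 in GA libraries (SD, n = 6 each, exact permutation p = 0.0498), with all 6 GA libraries under the vehicle median. The Jun family summed to 206 ± 50.0 and 175 ± 39.1 FPKM (exact permutation p = 0.240). The log2 ratio of the Fos-family sum to the Jun-family sum was -2.35 ± 0.30 with vehicle and -2.76 ± 0.16 with GA, a difference of -0.41 (exact permutation p = 0.0173, 6 of 6 GA libraries under the vehicle median). Among libraries lacking Y-linked reads this difference was -0.32 (exact permutation p = 0.143). The p-values of family sums, their ratio and the family shares were not adjusted for the number of measures compared. As the Fos-family sum contains Fos, these differences are not separate from that of Fos.

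Within the Fos family, Fos supplied 35.9 ± 12.7% of the summed FPKM with vehicle and 21.3 ± 14.8% with GA (exact permutation p = 0.0952). Fosl2 supplied 59.4 ± 13.3% and 72.9 ± 15.2% (p = 0.130, exact permutation). Fos and Fosl2 were thus the bulk of the family in every library, and vehicle libraries 4 and 5 and GA library 2 were those in which the share of Fos was the larger. The share of Fos without GA library 2 differed by -20.2 percentage points (exact permutation p = 0.0108), against -14.6 with all 12 libraries. Within the Jun family the shares of Jun (14.5 and 13.1%), Junb (64.5 and 66.1%) and Jund (21.1 and 20.9%) in the vehicle and GA groups differed by less than their SD.

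**Figure D4:**
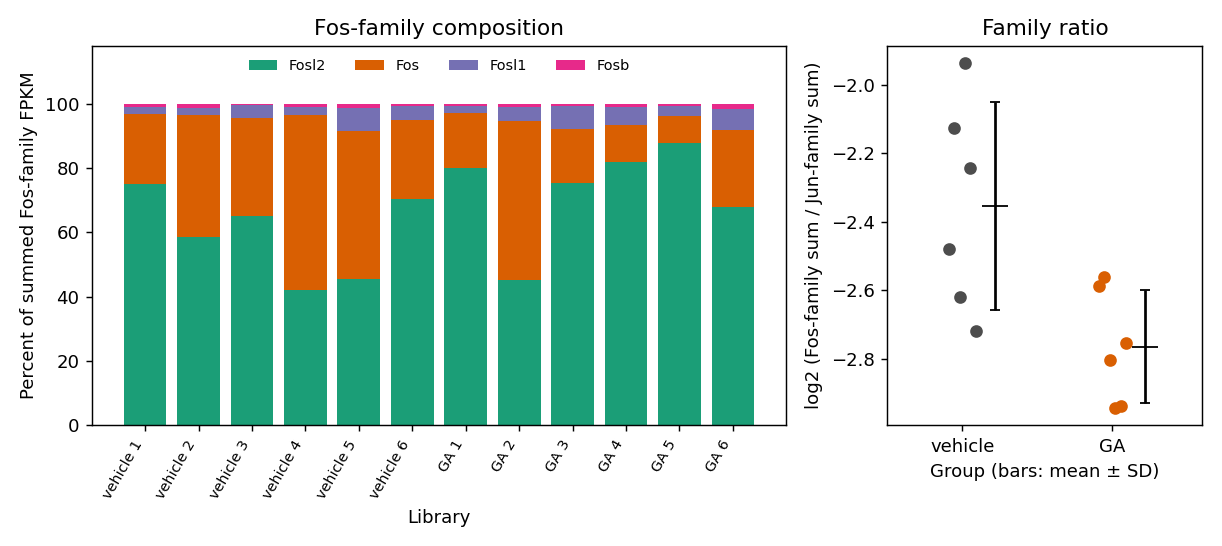
Left, the share of each Fos-family gene in the summed Fos-family FPKM of each library, as stacked bars that add to 100%. Right, the log2 ratio of the Fos-family sum to the Jun-family sum, 1 point per library, with the mean ± SD of each group (n = 6), where all 6 GA libraries lay under the vehicle median of -2.36.

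The members varied together across the 12 libraries to unequal degrees, and no pair had a negative Pearson's r. Pearson's r of log2 levels was 0.86 for Fosb and Jun, 0.85 for Fosl2 and Jund, 0.83 for Fosb and Junb and 0.82 for Fos and Fosb, whereas it was 0.00 for Jund and Atf3 and 0.15 for Fosl1 and Jund. These values describe libraries of both groups and share their sequencing depth.

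The 3 genes most like each member over the 12 libraries, considering genes of mean level 1 FPKM or more, were different for each member. They were Ube2srt (r = 0.91), Cln3 (0.90) and Irak3 (0.89) for Fos, and Zfp36 (0.90), U2af1 (0.89) and Traf3 (0.88) for Fosb. For Fosl1 they were Kdelr2 (0.93), Pip4k2c (0.93) and Tm9sf3 (0.92), and for Fosl2 Macf1 (0.96), Gpat3 (0.95) and Cpeb2 (0.94). For Jun they were Zbtb45 (0.87), Zfp36l1 (0.85) and Topors (0.85), for Junb Arpc3 (0.94), Tmem167 (0.93) and Edem1 (0.93), for Jund Zswim4 (0.93), Actr1a (0.92) and Tor1a (0.92), and for Atf3 Bid (0.86), Zfp281 (0.80) and Osbpl7 (0.78). Zfp36, which encodes a protein that destabilises short-lived messengers, was the only one of the 24 on a list of immediate early genes.

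S100a9, a calcium-binding protein abundant in neutrophils, was used as a marker of these cells, although which cells made it here was not tested. It ranged from 707 to 1571 scaled FPKM with vehicle and from 130 to 1125 with GA (log2 fold change -0.73, standard error 0.48, exact permutation p = 0.180), and GA library 5 was the lowest. Of 12 neutrophil markers, 9 passed the filter and all 9 had a lower mean with GA, none at an unadjusted limma p below 0.05. Their summed level was 1220 to 2578 scaled FPKM with vehicle and 234.5 to 1952 with GA. Most of that sum was S100a9 (mean 1066 with vehicle and 755 with GA) and S100a8 (665 and 454). The defining neutrophil genes Ly6g, Ngp and Camp were under a mean of 0.1 FPKM, so the sum is not a measure of neutrophil number.

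Over the 12 libraries, 3 of 8 members were positively correlated with S100a9 at an unadjusted permutation p below 0.05, beside 3.13% of all genes. They were Fos (r = 0.64, permutation p = 0.0147, rho = 0.57, p = 0.0594), Fosb (r = 0.55, permutation p = 0.0346, rho = 0.62, p = 0.0351) and Fosl1 (r = 0.62, permutation p = 0.0405, rho = 0.48, p = 0.115). No gene passed an adjusted p below 0.1 (0.0%), and the adjusted p of these 3 was 0.847. For the other 5 members r lay between 0.18 (Jund) and 0.52 (Junb). With the mean log2 level of the neutrophil markers in place of S100a9, r was 0.70 for Fos (permutation p = 0.0102) and 0.59 for Fosl1 (permutation p = 0.0461, rho = 0.28), but 0.42 for Fosb (permutation p = 0.180, rho = 0.27).

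Within the vehicle group, r between Fos and S100a9 was 0.07 (exact permutation p = 0.864), and within the GA group it was 0.73 (exact permutation p = 0.0917). By rank within the GA group, rho was 0.94 for Fosb and Atf3 (exact permutation p = 0.0167 each) and 0.89 for Jun and Junb (exact permutation p = 0.0333 each), and for Fos it was 0.83 (exact permutation p = 0.0583). Without GA libraries 5 and 1, which were farthest from the median of S100a9, r was 0.23 for Fos, 0.26 for Fosb and 0.18 for Fosl1, so the relations rested on these libraries. The count of 3 members became 0 without GA library 5, 1 without vehicle library 4 or GA library 1, 2 or 6, and 6 without vehicle library 6. The log2 fold change of Fos with the mean neutrophil marker level as a term in the fit was -1.15 (limma, unadjusted p = 0.0207, adjusted p = 0.992).

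Krt13 ranged from 6958 to 23127 scaled FPKM with vehicle and from 5594 to 13085 with GA (log2 fold change -0.14, standard error 0.45, exact permutation p = 0.688). Of 10 epithelial markers, 9 had a lower mean with GA, none at an unadjusted limma p below 0.05, and their summed level was 21220 to 50390 scaled FPKM with vehicle and 17810 to 32470 with GA. Atf3 was the only member correlated with Krt13 at an unadjusted permutation p below 0.05 (1 of 8, beside 9.34% of all genes with a negative r). Its r was -0.61 (permutation p = 0.0334, adjusted over all genes 0.196) and its rho -0.71 (p = 0.0124, permutation), whereas 8.35% of all genes passed an adjusted p below 0.1. For Fos r was -0.45 (permutation p = 0.146) and rho -0.63 (p = 0.0322, permutation).

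The relation was also read within groups. In the GA group r with Krt13 was -0.98 for Fos (exact permutation p = 0.00278) and -0.97 for Atf3 (exact permutation p = 0.00694), with GA library 2 lowest in Krt13 and highest in both. In the vehicle group r was -0.48 for Fos (exact permutation p = 0.311) and -0.39 for Atf3 (exact permutation p = 0.451), and whether the groups differed was not tested. Without vehicle library 1 and GA library 2, which were farthest from the median of Krt13, r was -0.66 for Fos (permutation p = 0.0402) and -0.50 for Atf3 (permutation p = 0.144). Without the 3 libraries high in Lipf it was -0.31 for Fos and -0.61 for Atf3. The count of 1 member became 0 without vehicle library 4 or 6 or GA library 2, 5 or 6, and 2 without vehicle library 1.

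The epithelial measure changed which members were related to it. With the mean log2 level of the 10 epithelial markers in place of Krt13, r was 0.75 for Fosl2 (permutation p = 0.00491), 0.65 for Junb (permutation p = 0.0250) and 0.58 for Jund (permutation p = 0.0457), while it was 0.24 for Fos and -0.13 for Atf3. With Krt13 alone r was 0.41 for Fosl2, -0.07 for Junb and 0.44 for Jund, so that of these 5 members Fos and Junb differed in sign between the measures. With Krt13 as a term in the fit, the log2 fold change of Fos was -1.72 (limma, unadjusted p = 0.00186, adjusted p = 0.992).

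**Figure D5:**
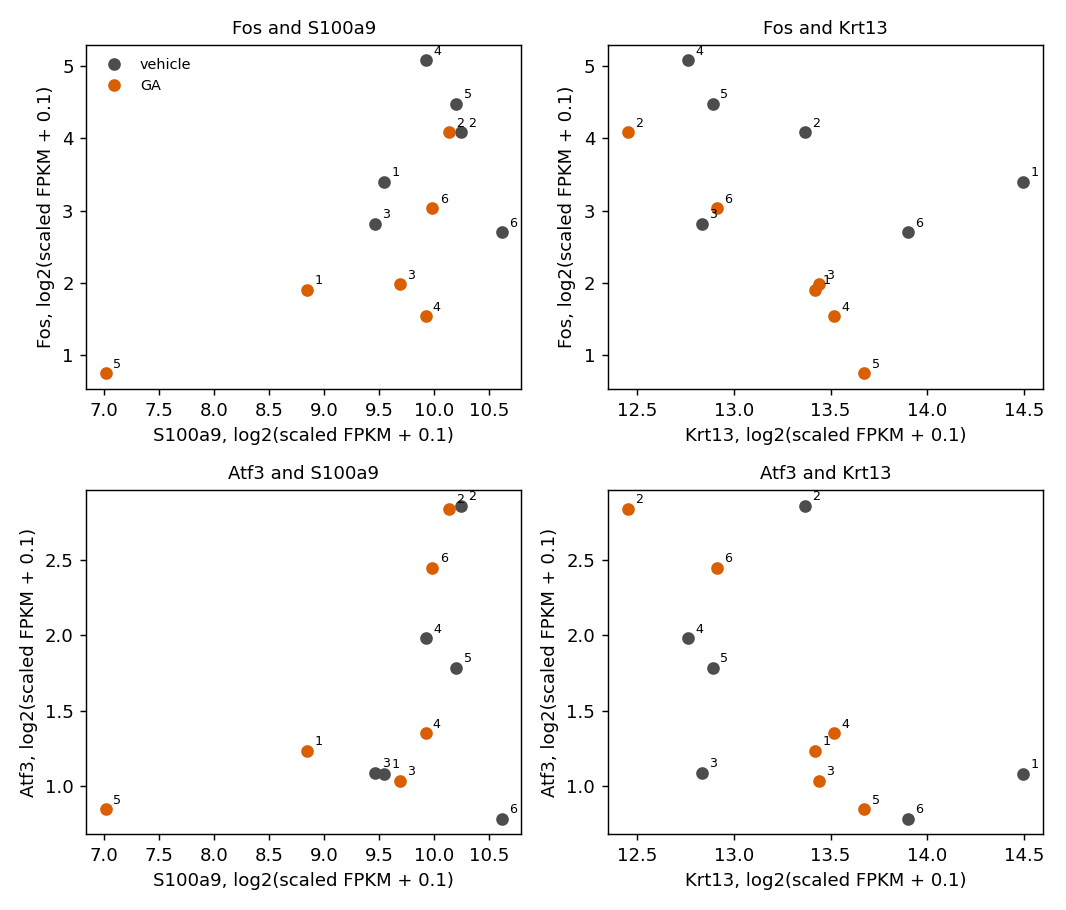
Log2 levels of Fos (top) and Atf3 (bottom) against S100a9 (left) and Krt13 (right) in each library, numbered within its group (vehicle in grey, GA in orange). GA library 5 stands apart at the low end of S100a9, and in the GA group Fos and Atf3 decrease as Krt13 increases (r = -0.98 and -0.97, n = 6).

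The genes around AP-1 were read from 5 lists. No gene on any list was called, and the median log2 fold change over all tested genes was -0.02. Of 25 other immediate early genes, 23 had a lower mean with GA and the median was -0.24. Without GA library 5 the count was 22 and the median -0.16, without the 3 libraries high in Lipf 22 and -0.34, and among libraries lacking Y-linked reads 19 and -0.19. Dusp1, a phosphatase that switches off MAP kinases, had 33.1 ± 15.1 scaled FPKM with vehicle and 17.4 ± 4.01 with GA (log2 fold change -0.83, standard error 0.28, limma, unadjusted p = 0.0117, adjusted p = 0.999), with 6 of 6 GA libraries under the vehicle median. Klf6 (-0.27), Dusp6 (-0.56) and Zfp36 (-0.31) followed, with unadjusted p-values from limma of 0.0826 or more. The study had reported Dusp1 as significantly downregulated from these libraries as well, whereas it was not called here.

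Of 28 tested genes of the epithelium and of tumours that are commonly described as AP-1 targets, 27 had a lower mean with GA and the median was -0.48. Plau, the urokinase protease, had 50.9 ± 18.9 scaled FPKM with vehicle and 29.8 ± 11.7 with GA (log2 fold change -0.77, limma, unadjusted p = 0.0285, exact permutation p = 0.0541), with 6 of 6 GA libraries under the vehicle median. Areg, an EGF receptor ligand that the study also named, had 10.96 ± 6.27 and 5.40 ± 3.53 (-1.16, limma, unadjusted p = 0.0403, exact permutation p = 0.0801). Mmp13, a collagenase (-2.32, standard error 1.23), and Krt16, a keratin of activated epithelium (-0.68, standard error 0.39), had unadjusted p-values from limma of 0.0836 and 0.107. Some of these genes are also made by neutrophils or fibroblasts, and Krt16 and Krt6a are on the epithelial list too. Neutrophil markers had a lower mean with GA for 9 of 9 tested (median -0.75), epithelial markers for 9 of 10 (median -0.23) and fibroblast markers for 6 of 6 (median -0.38, and -1.05 among libraries lacking Y-linked reads, where 24 of the 28 target genes were lower with a median of -0.77). The summed level of the fibroblast markers was 74.2 to 312.6 scaled FPKM with vehicle and 37.6 to 224.5 with GA. Markers of other tissues went both ways. Those of gland were lower for 7 of 7 (median -1.485), of macrophages for 5 of 8 (-0.13) and of T cells for 3 of 5 (-0.01). Skeletal muscle markers were lower for 4 of 9 (median 0.32) and endothelial markers for 0 of 6 (median 0.10). The part of these cells in the count was not tested. Without GA library 5 the count was 26 of 28 and the median -0.41, without the 3 libraries high in Lipf 27 and -0.49, and among libraries lacking Y-linked reads 24 and -0.77.

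The lists upstream of and beside AP-1 stood closer to the median of all genes. Of 26 kinases and serum response factor partners that act upstream, 18 had a lower mean, none at an unadjusted p below 0.05, and the median was -0.03. Those with the smallest p were Braf (-0.28), Map2k6 (-0.50), Mapk3 (-0.21) and Mrtfb (-0.17), with unadjusted p-values from limma of 0.0842 or more. Of 21 other basic leucine zipper genes, 14 had a lower mean and the median was -0.06. Maff (-0.30), Cebpd (-0.61) and Maf (-0.26) had unadjusted p-values from limma of 0.117 or more. Of 14 genes that restrain or degrade AP-1 proteins, 6 had a lower mean and the median was 0.02, with Itch (-0.20), Smurf1 (-0.27) and Tsc22d3 (0.27) at unadjusted p-values from limma of 0.129 or more.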

How the data were processed

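Bulk RNA-seq of mouse tongue gave 6 vehicle and 6 GA libraries. The authors used HISAT2 with the mm10 genome, took uniquely mapped reads per gene from featureCounts and deposited FPKM values (reads divided by gene length and library total). Rows without a gene name (41.4% of 55463) were left out. Low values were whole multiples of 1 read for 97.7 to 98.4% of them (tolerance 0.02 reads), with exon lengths from GENCODE M21, which gave the totals. Trimmed means of log ratios scaled the libraries (factors 0.877 to 1.09; "scaled FPKM"), and genes of mean level 0.1 FPKM or more were compared with limma 3.58.1 (R 4.3.3) on log2(scaled FPKM + 0.1), which understates changes of low genes. The study tested counts with a quasi-likelihood model, and its thresholds were kept. Single values, ratios and shares were compared by exact permutation over all group assignments (smallest p 0.00216), correlations over 12 libraries by 100000 permutations and within groups over 720 pairings. Scripts were tested on simulated data. The named genes were the 8 members, S100a9, Krt13, the 3 genes most correlated with each member and the 4 smallest p-values of each list, of which some are not reported here. Members and lists were chosen with earlier results of these data known. List symbols were matched by name or, for 5, through RefSeq synonyms, and Lor and Trac had no row. Alternatives covered pseudocount, filter, scaling, test, covariate terms, a replicate block and omission of libraries.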

Additional observations from a re-analysis of the deposited data

Results flagged for a closer look

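Of 96 groups of 6 values examined (levels, ratios and shares of the members and of S100a9 and Krt13, in each treatment group), 1 had a sample far from the others by Dixon's test, where chance gives about 1 in 20. In the vehicle group the log2 ratio of Fosl2 to Jund was -1.37 in library 3 and -0.91 in the next lowest library, a gap of 0.675 of the whole range. Vehicle library 3 was also the lowest of the 12 in the level of Fosl2 and was among the 3 libraries high in Lipf, and the part of gland tissue in this ratio was not tested. The ratio did not pass the test between the groups with all libraries (difference -0.09, exact permutation p = 0.478), and without vehicle library 3 the difference was -0.19 (exact permutation p = 0.0476, before adjustment).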

How the results depend on the processing

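The number of called members was 0 under each of 28 alternatives and 1 at an unadjusted p below 0.05, and the number of called genes was 0 except for 366 at that limit, 2 in the libraries without Y-linked reads, and 0 to 1 with each library left out (1 without vehicle library 4). The replicate block gave 0 called genes, 225 genes at an unadjusted p below 0.05 and a Fos log2 fold change of -1.55 (limma, unadjusted p = 0.0308). Libraries with the same number did not vary together (r from -0.37 to 0.08, none of 6 vehicle libraries closest to its own number). Such values cannot exclude that the numbers pair the libraries, since a pairing need not show in mixed tissue. Fos kept an unadjusted limma p below 0.05 in 27 of 28 alternatives, the exception being the libraries without Y-linked reads. Directions turned for Fosl1 without vehicle library 5 (0.00826; range with each library left out -0.414 to 0.00826), Jun in the libraries without Y-linked reads (0.106), and Atf3 with a Krt13 term (-0.0871), without the 3 libraries high in Lipf (-0.293) and between -0.214 and 0.281 with each library left out. The 5 ratios became 2 with the replicate block, 1 in the libraries without Y-linked reads, and 2 to 7 with each library left out. With the block, where groups are swapped only within a number, the ratio of Fos to Atf3 had an exact permutation p of 0.0625. By Pearson's r, the 3 members correlated with S100a9 became 1 with a pseudocount of 1 or group-centred values, 0 within either group, without the 2 farthest libraries, in those without Y-linked reads and without the 3 high in Lipf, and 0 to 6 with each left out (Fosb was not among those with the neutrophil list). The 1 correlated with Krt13 became 2 group-centred, 0 in the vehicle and 2 in the GA group, 3 in the libraries without Y-linked reads, 0 without those high in Lipf, 3 with the epithelial list, and 0 to 2 with each left out. The Fos share differed by -18.99 points without the libraries high in Lipf (exact permutation p = 0.0238) and by -20.2 to -10.86 with each left out, and the log2 family ratio by -0.318 in the libraries without Y-linked reads (exact permutation p = 0.143). Causes of these shifts were not tested. The subsets by Y-linked reads (group comparisons) and by Lipf, and median-of-ratios scaling of correlations, were chosen after seeing the data, and ratios and shares were not run under the filter, test and covariate alternatives. Few reads limit Fosb, Fosl1 and Atf3.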
